A study of Mus musculus with 4 samples.

Results

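miRNAs that the body makes mainly in blood cells were examined in exosomes shed by mouse colon carcinoma cells. The members were taken by name from the deposited table: mmu-miR-142a-3p, mmu-miR-142a-5p, mmu-miR-150-5p and mmu-miR-223-3p, 4 of its 795 known mature miRNAs. The exosomes came from conditioned medium of 2 mouse colon carcinoma lines, C26, whose tumours cause wasting in mice, and MC38. Per the labels, both lines grew in medium described as exosome-free, and no drug or genetic change is named. Exosomes of each line were isolated with ExoQuick-TC, a precipitation reagent, or with a Wako capture ELISA kit, which gave 1 library for each line and kit, named here by line and then kit. Separate cultures are not named. The spread behind the p-values below comes from fits over these single libraries, not from replicates of a line and kit.

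miR-142 is made from one hairpin in nearly all blood cell lineages, and either strand of that hairpin can be loaded into Argonaute to repress messenger RNAs. miR-150 accumulates in mature lymphocytes, where it restrains the transcription factor Myb. miR-223 marks neutrophils and other myeloid cells, is carried by platelets, and restrains Mef2c, a factor of myeloid progenitors. Carcinoma cells are not a usual source of these miRNAs, so their reads in carcinoma exosomes ask which libraries hold them and at what level.

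The mature sequences are shown because the seed, bases 2 to 8 from the 5′ end, decides most of the targets of a miRNA. RefSeq on GRCm38.p6 held the mature sequence of 3 of the 4 members, with the seed here in capitals.
miR-142a-5p: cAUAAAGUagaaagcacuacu
miR-142a-3p: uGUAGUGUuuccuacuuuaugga
miR-223-3p: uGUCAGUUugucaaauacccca
The 3 seeds differ from each other, and none of the other mature mouse miRNAs in the RefSeq table shares any of them. The members are thus no seed family.

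The Mir142 hairpin is shown because both of its strands were measured, with the 5p and 3p strands in capitals.
Mir142: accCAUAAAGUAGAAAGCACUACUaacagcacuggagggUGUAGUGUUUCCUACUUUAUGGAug
It spans chr11:87756864-87756927 on the plus strand, inside the long noncoding RNA gene Mir142hg. Mir142b, an annotated hairpin on the minus strand, covers the same place (chr11:87756841-87756955). Its product miR-142b is the reverse complement of 20 bases of miR-142a-3p and shares a run of 10 bases with miR-142a-5p.
miR-142b: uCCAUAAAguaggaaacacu
Reads were given to miR-142b only in C26 ExoQuick, and there only 2, so this overlap touched few reads. Mir223 lies at chrX:96242817-96242926 on the plus strand, in an exon of the noncoding RNA gene F630028O10Rik. Its other strand, miR-223-5p, also had 2 reads in C26 ExoQuick and 0 in the other 3 libraries.

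By totals recovered from the values, the C26 libraries held 1356801 reads with ExoQuick and 33692 with Wako. The MC38 libraries held 340643 and 3867, and these totals set the precision of every value. Summed over all entries, the listed reads were more, at 1434877, 34877, 347527 and 3953, and some entries share all their reads. Levels are in RPM, reads scaled to a common library total, and 1 read was worth 0.737, 29.7, 2.94 and 259 RPM in that order. The upper limit for a miRNA with 0 reads is put at 3 counts per library, or 2.21, 89.04, 8.81 and 776 RPM. The exact interval of 0 reads reaches higher, to 10.8 RPM in MC38 ExoQuick and 953 in MC38 Wako. Intervals are exact 95% intervals, Clopper-Pearson for levels and shares, and cover counting error only. With 1 library for each line and kit, a difference between 2 libraries has no replicate check. Of 8 miRNAs listed as markers of colon epithelium, miR-192-5p and miR-194-5p were read here, with 1 to 75 and 4 to 28 reads where detected. Their summed level was between 64.6 and 1034 RPM, against 2448 to 132085 RPM for 5 mesenchymal miRNAs.

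miR-142a-5p was the most abundant of the members in each of the 4 libraries. It had 6219 reads in C26 ExoQuick (4584 RPM, interval 4471 to 4699), 98 in C26 Wako (2909 RPM, 2362 to 3544), 12 in MC38 ExoQuick (35.2 RPM, 18.2 to 61.5) and 19 in MC38 Wako (4913 RPM, 2961 to 7662). MC38 ExoQuick alone was low, and the intervals of MC38 Wako and C26 ExoQuick, and of MC38 Wako and C26 Wako, overlapped. By level it ranked 30 of the 687 miRNAs with reads in C26 ExoQuick, 46 of 407 in C26 Wako, 33 of 188 in MC38 Wako and 212 of 475 in MC38 ExoQuick.

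miR-142a-3p, the opposite strand, was less abundant. It had 72 reads in C26 ExoQuick (53.1 RPM, 41.5 to 66.8) and 8 in MC38 ExoQuick (23.5 RPM, 10.1 to 46.3), against 20 in C26 Wako (594 RPM, 363 to 917) and 3 in MC38 Wako (776 RPM, 160.02 to 2266). Both Wako values lay above both ExoQuick values, and their intervals did not meet those of the ExoQuick libraries.

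miR-150-5p had 55 reads in C26 Wako (1632 RPM, 1230.0 to 2124) and 16 in C26 ExoQuick (11.8 RPM, 6.74 to 19.2). In MC38 it had 3 reads in the Wako library (776 RPM, 160.02 to 2266) and 0 in the ExoQuick library. That 0 allows up to 8.81 RPM by the 3-count limit and 10.8 by the exact interval. The lymphocyte miRNA was thus higher in both Wako libraries than in both ExoQuick libraries, where it was low or undetected. In MC38 Wako this rests on 3 reads.

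miR-223-3p had 33 reads in C26 Wako (979 RPM, 674 to 1375), 10 in C26 ExoQuick (7.37 RPM, 3.53 to 13.6), 7 in MC38 ExoQuick (20.6 RPM, 8.26 to 42.3) and 0 in MC38 Wako. C26 Wako was higher than both ExoQuick libraries, whose intervals overlapped. In MC38 Wako the count of 0 allows up to 776 RPM by the 3-count limit and 953 by the exact interval. The latter reaches into the interval of C26 Wako, so MC38 Wako cannot be placed below it.

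**Figure D1:**
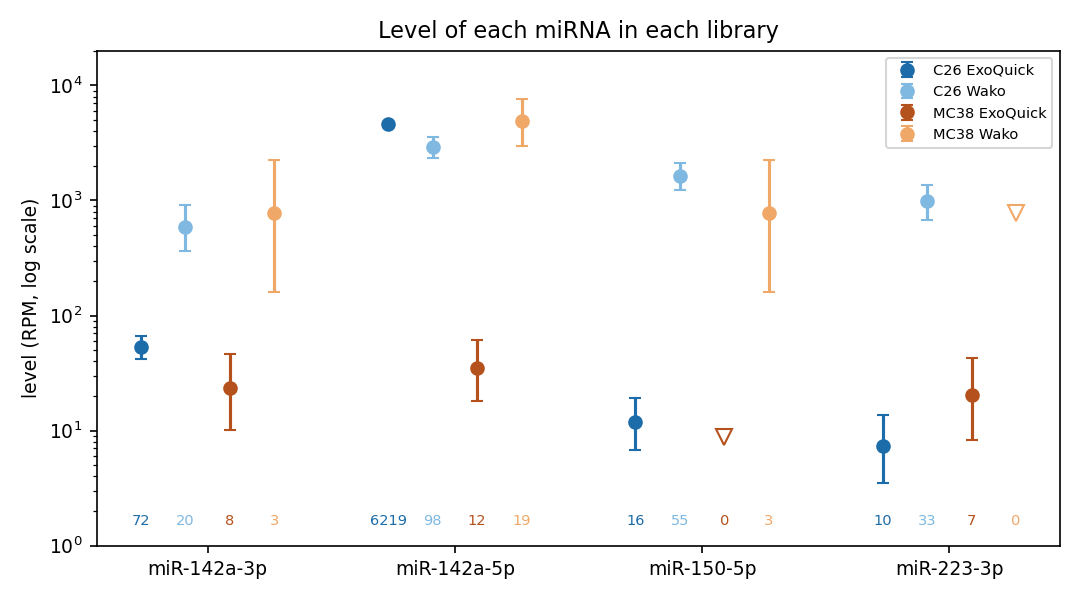
Level of each miRNA in RPM (log axis) in the 4 libraries, with exact 95% intervals and the number of reads along the bottom. Open triangles mark the upper limit of 3 counts used for a count of 0. miR-142a-5p is low in MC38 ExoQuick alone (35.2 RPM), while miR-142a-3p and miR-150-5p are higher in both Wako libraries.

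Summed, the members made up 4656 RPM of C26 ExoQuick, 6114 of C26 Wako, 6465 of MC38 Wako and 79.3 of MC38 ExoQuick. Without miR-142a-5p, the other 3 gave 72.2 RPM in C26 ExoQuick (58.6 to 88.02) and 44.03 in MC38 ExoQuick (24.6 to 72.6), against 3206 in C26 Wako (2630 to 3869) and 1552 in MC38 Wako (570 to 3374). The intervals of the ExoQuick sums of these 3 overlapped.

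The comparison of C26 with MC38, named in the title of the series, asks which miRNAs the exosomes of the lines differ in. Under ExoQuick, miR-142a-5p stood 130.1-fold higher in C26 (interval of the ratio 74.4 to 252). miR-142a-3p from the same hairpin was 2.26-fold higher (1.09 to 5.43). miR-150-5p was at least 1.34-fold higher in C26, set against the limit of 8.81 RPM that 0 reads allow, while the exact interval of the ratio reached down to 0.968. For miR-223-3p the ratio of C26 to MC38 was 0.359, with an interval of 0.123 to 1.11 that holds 1. The interval lay above 1 for 2 of the 4 members, beside 37.7% of the 390 miRNAs whose mean level reached 10 RPM.

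Under Wako, the interval lay above 1 for 0 of the 4, beside 8.46% of the 390. The ratio of C26 to MC38 was 0.592 for miR-142a-5p (0.36 to 1.03), 0.765 for miR-142a-3p (0.227 to 4.02) and 2.1 for miR-150-5p (0.683 to 10.5). miR-223-3p was at least 1.26-fold higher in C26, against the limit of 776 RPM in MC38 Wako. That limit was set at 3 counts, while the exact interval of the ratio reached down to 0.97. The line difference of miR-142a-5p seen with ExoQuick was not seen with Wako, where the interval excludes a C26 excess above 1.03-fold.

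In limma over both kits, 1 of the 4 members passed at an adjusted p under 0.05, beside 3.33% of the 390 tested, in either direction. miR-142a-5p was higher in C26 (log2 difference 3.11, SE 0.94, adjusted p = 0.0338), with a difference of 6.98 under ExoQuick and −0.76 under Wako. The fitted value averages these, and its SE comes from the trend over all miRNAs and leaves the gap between them out. miR-142a-3p (0.38, adjusted p = 0.922), miR-150-5p (2.37, adjusted p = 0.739) and miR-223-3p (4.29, adjusted p = 0.711) did not pass in limma. The median difference of the 390 was 1.85, so relative to it miR-142a-5p stood at 1.26 and miR-142a-3p at −1.47. These positions depend on the setting, since edgeR gave 2.85 and 0.26 and a minimum mean of 100 RPM gave 2.75 and 0.01. The 4.29 of miR-223-3p rests on the pseudocount set against 0 reads in MC38 Wako, and was 0.22 in edgeR and 0.50 in DESeq2. The call was lost with median-ratio scaling (adjusted p = 0.587), in edgeR (0.411) and in DESeq2 (0.179). It was also lost with the kit term dropped (adjusted p = 0.556). Fits without 1 library must drop that term too, and without MC38 ExoQuick the difference was −0.43 (adjusted p = 0.745). Of the calls over the 390, 11 lay above 0 (C26 over MC38) and 2 below, against 10 and 6 with quantile normalization.

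The second comparison, between the kits, asks which miRNAs the isolation method changes. Within C26, where the libraries are deeper, miR-150-5p stood 138-fold higher with Wako than with ExoQuick (78.2 to 259), miR-223-3p 133-fold (63.97 to 302) and miR-142a-3p 11.2-fold (6.45 to 18.6). miR-142a-5p went the other way, at 0.635 of its ExoQuick level (0.514 to 0.775). The interval lay above 1 for 3 of the 4 members, beside 43.1% of the 390, and below 1 for 1 of the 4, beside 10.5%. On the log2 scale miR-223-3p differed by 6.87 and miR-142a-3p by 3.46, where the median of the 390 was 1.03.

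Within MC38, miR-142a-5p was 139-fold higher with Wako (64.3 to 315) and miR-142a-3p 33.03-fold (5.64 to 138). For miR-150-5p, 3 reads in MC38 Wako stand at the limit itself, so no fold is given against the 0 reads of MC38 ExoQuick. For miR-223-3p, 7 reads with ExoQuick and 0 with Wako gave a ratio of Wako to ExoQuick between 0 and 61.1, which holds 1. The interval lay above 1 for 3 of the 4, with miR-150-5p among them, beside 23.8% of the 390. The rise of miR-142a-5p in MC38 was shared by the 5 mesenchymal miRNAs. Their intervals lay above 1 for all 5 in MC38 (median log2 difference 4.11). In C26 the interval lay above 1 for 1 of them and below 1 for 3 (median −0.70).

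In limma with line as the second term, 2 of the 4 members passed, both higher with Wako, beside 5.38% of the 390 in either direction. miR-150-5p had a log2 difference of 8.30 (SE 2.63, adjusted p = 0.0336) and miR-142a-5p one of 3.21 (SE 0.94, adjusted p = 0.0155). miR-142a-3p (4.22, adjusted p = 0.148) and miR-223-3p (1.22, adjusted p = 0.966) did not pass. The miR-223-3p value again depends on the pseudocount, and was 4.23 in edgeR and 3.36 in DESeq2, where it did not pass either. The size of the miR-150-5p difference depends on the pseudocount too, through the 0 reads in MC38 ExoQuick, and was 8.83 with 0.5 and 6.27 with 10. miR-150-5p reached the minimum mean of 10 RPM only through its Wako levels, 1632 and 776 RPM, against 11.8 and 0 with ExoQuick. miR-223-3p reached it only through C26 Wako (979 RPM). In MC38 Wako 1 read, 259 RPM, is enough to reach it, so the minimum favoured miRNAs high with Wako among the 390 too. The same minimum was used before edgeR and DESeq2. The miR-142a-5p value rests on MC38, since its difference was 7.08 there and −0.66 in C26, and without MC38 ExoQuick it was −0.28 (adjusted p = 1). The miR-150-5p difference had the same sign in both lines, and edgeR (log2 6.14, adjusted p = 0.000302) and DESeq2 (6.92, adjusted p = 0.000833) on the recovered reads also called it. With the line term dropped it did not pass (adjusted p = 0.167). Fits without 1 library must drop that term too, and without C26 ExoQuick, C26 Wako or MC38 Wako the adjusted p was 0.2003, 0.219 and 0.298. Without MC38 ExoQuick it was 0.0134, with C26 ExoQuick as the lone ExoQuick library and the spread taken from Wako libraries of different lines, so this value gives no support to the call. With TMM scaling neither passed (adjusted p = 0.136 for miR-150-5p and 0.4 for miR-142a-5p).

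All 21 calls over the 390 were higher with Wako, while TMM scaling gave 4 higher and 11 lower, and quantile normalization 7 and 3. The median of the 390 moved from 0.44 to −0.61 and −0.37. Relative to that median, miR-150-5p stood at 7.85, at 7.82 with TMM scaling and at 8.07 with quantile normalization. miR-142a-5p stood at 2.77, 2.33 and 3.36 on the same footing. In both lines the Wako library was the shallower, by a wide margin, so kit and depth cannot be told apart.

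**Figure D2:**
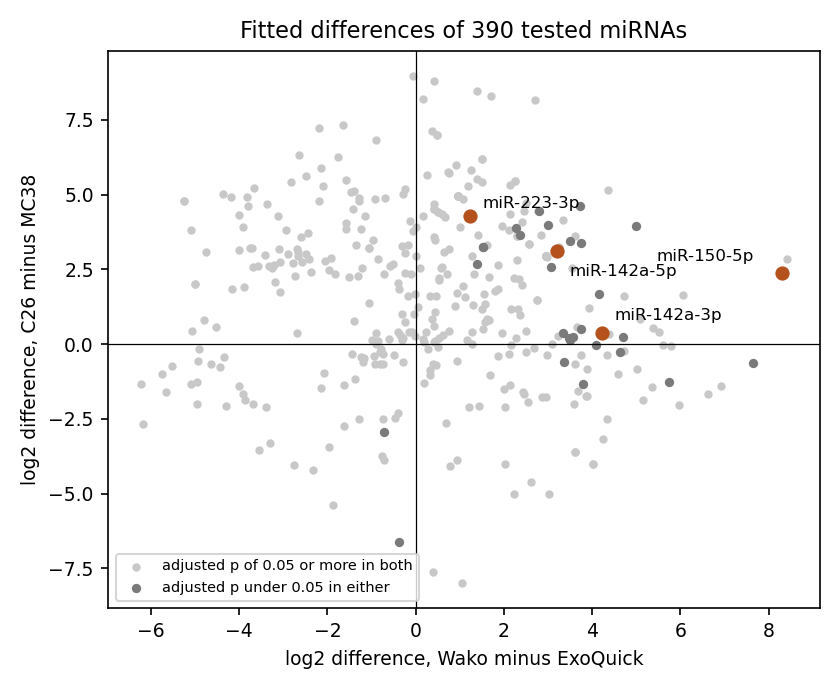
Fitted log2 differences of the 390 tested miRNAs, Wako minus ExoQuick on the x axis and C26 minus MC38 on the y axis. Each point is 1 miRNA, darker grey where either comparison passed. miR-150-5p lies far to the right (8.30), and miR-142a-5p is positive on both axes (3.21 and 3.11).

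The strands of the miR-142a hairpin kept different proportions in the libraries. Of the reads of both strands, miR-142a-5p made up 98.9% in C26 ExoQuick (98.6 to 99.1, 6291 reads), 83.1% in C26 Wako (75.04 to 89.3, 118 reads), 60.0% in MC38 ExoQuick (36.1 to 80.9, 20 reads) and 86.4% in MC38 Wako (65.1 to 97.1, 22 reads). The interval of C26 ExoQuick lay above those of the other 3 libraries, which overlapped each other. In reads, that is 86.4 of the 5p strand for each 3p read in C26 ExoQuick, against 4.9 with Wako, and in MC38 1.5 with ExoQuick and 6.33 with Wako. The share pooled over the libraries, 98.4%, is set by C26 ExoQuick.

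Counted in percentage points, a shift of this size between the C26 libraries was not particular to miR-142a. Its ratio of 5p to 3p reads went from 86.4 to 4.9, and hairpins were not ranked by that ratio. From C26 ExoQuick to C26 Wako its 5p share fell by 15.8 percentage points. Among 73 hairpin names with at least 20 reads of both strands in each C26 library, 19 moved at least as far, miR-142a among them, and the median absolute move was 4.39 points. Library preparation can favour some RNA ends, so a proportion of strands is compared here across libraries and not read as a ratio of molecules.

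**Figure D3:**
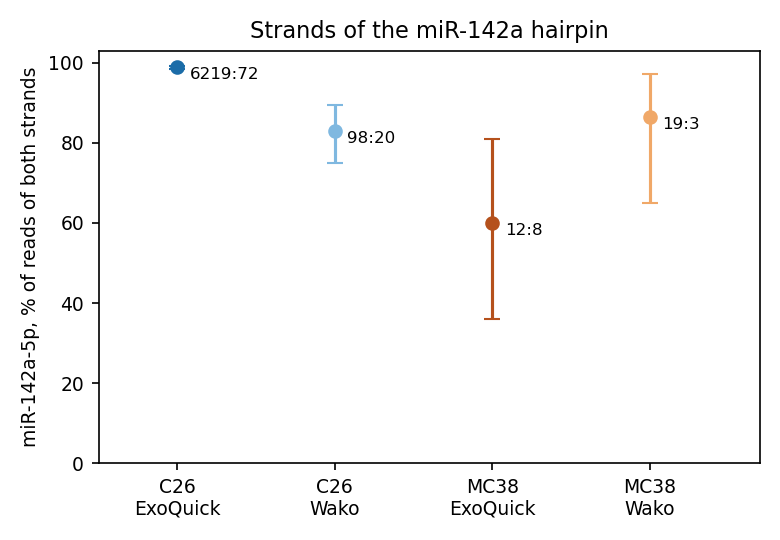
Share of miR-142a-5p among the reads of both miR-142a strands in each library, in percent, with exact 95% intervals. Labels give reads of 5p and 3p. C26 ExoQuick stands at 98.9%, above the intervals of the other 3 libraries.

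The 3 scarcer members also differed in their proportions to each other. In C26 ExoQuick, miR-142a-3p gave 73.5% of their 98 reads (63.6 to 81.9), miR-150-5p 16.3% (9.63 to 25.2) and miR-223-3p 10.2% (5.003 to 17.97). In C26 Wako the order turned: miR-150-5p gave 50.9% of 108 reads (41.1 to 60.7), miR-223-3p 30.6% (22.1 to 40.2) and miR-142a-3p 18.5% (11.7 to 27.1). For each of the 3, the intervals of the C26 libraries did not overlap. MC38 ExoQuick held 8, 0 and 7 reads of miR-142a-3p, miR-150-5p and miR-223-3p, and MC38 Wako 3, 3 and 0, too few to set an order.

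The MC38 Wako library was set against C26 ExoQuick, the deepest library, for miRNAs that separate the lines under ExoQuick. With at least 1000 RPM in C26 ExoQuick and at most a 20th of that in MC38 ExoQuick, 8 entries with 7 distinct read profiles were found, and miR-142a-5p was one of them. The other 6 profiles are miR-199a-3p with its copy miR-199b-3p, miR-214-3p and miR-199a-5p, all typical of mesenchymal cells, and miR-298-5p, miR-296-3p and miR-222-3p. Their levels in MC38 Wako were 0.306 to 0.536 of those in C26 ExoQuick. miR-142a-5p stood at 1.07 of its C26 ExoQuick level (0.645 to 1.68), above the point values of the other 6, and its interval overlapped those of miR-298-5p, miR-199a-5p, miR-296-3p and miR-222-3p. The low level in MC38 ExoQuick was fixed by the rule, and the MC38 Wako values of miR-296-3p and miR-222-3p rest on 3 reads each. Whether reads moved between libraries was not tested.

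At the C26 ExoQuick level, a library of 3867 reads would hold 17.7 reads of miR-142a-5p, and MC38 Wako held 19 (interval 11.4 to 29.6). For miR-142a-3p that level gives 0.205 reads, and 3 were seen (0.619 to 8.76). For miR-150-5p it gives 0.0456 reads against 3 seen (0.619 to 8.76). For miR-214-3p the same level gives 264 reads, and 87 were seen. Against C26 Wako, the ratios of MC38 Wako were 1.69 for miR-142a-5p (0.976 to 2.78), 1.31 for miR-142a-3p (0.249 to 4.41) and 0.475 for miR-150-5p (0.0951 to 1.46), each with an interval that holds 1. In the opposite direction, miR-146a-5p and miR-378d were the 2 entries that the same rule found high in MC38 ExoQuick and low in C26 ExoQuick. Their levels in C26 Wako were 0.00775 and 0.0435 of those in MC38 ExoQuick.

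**Figure D4:**
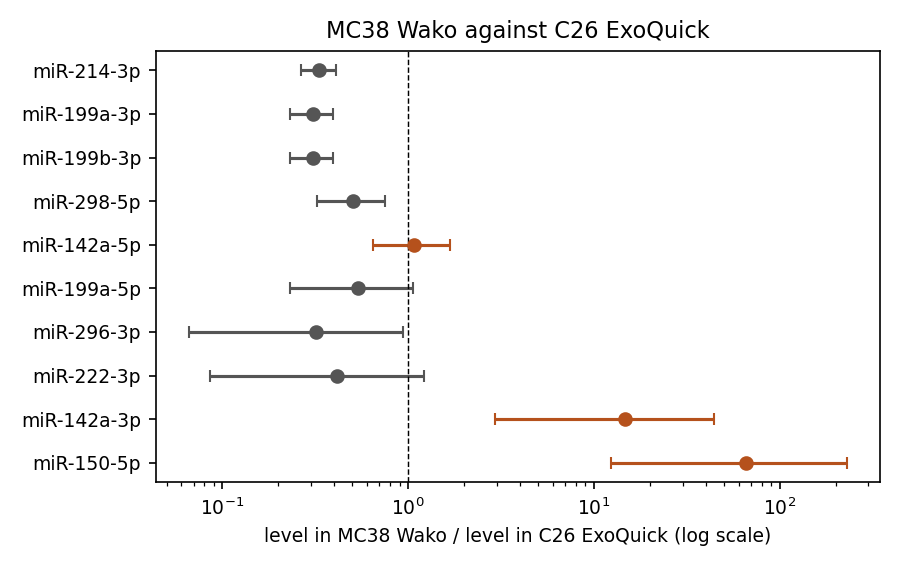
Ratio of the level in MC38 Wako to that in C26 ExoQuick (log axis) with exact 95% intervals, for the entries high in C26 ExoQuick and low in MC38 ExoQuick, and for miR-142a-3p and miR-150-5p. Members are orange, other miRNAs grey, and the dashed line marks equal levels. miR-142a-5p lies at 1.07 and the other entries of the first kind between 0.306 and 0.536.

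Other miRNAs typical of white blood cells did not share one pattern with the members. The list held miR-146a-5p and miR-146b-5p, induced by NF-kappa-B, miR-155-5p, of activated immune cells, miR-181a-5p and miR-181b-5p, of developing lymphocytes, and miR-342-3p and miR-342-5p. Their summed level was highest in MC38 ExoQuick, at 28385 RPM, against 10344 in MC38 Wako, 5817 in C26 Wako and 1303 in C26 ExoQuick. miR-146a-5p supplied 22983 RPM of the MC38 ExoQuick sum. All 7 were tested in limma: between the lines only miR-146a-5p passed, higher in MC38 (log2 −6.62, adjusted p = 1.36e-07).

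Between the kits, 1 of the 7 was called, miR-342-3p, higher with Wako (log2 3.34, adjusted p = 0.00841). Its ExoQuick levels were 624 RPM for C26 and 329 for MC38, and its Wako levels 4304 and 4913. Within C26, the Wako level was higher for 6 of the 7, beside 261 of the 390, with a median log2 difference of 2.78, beside 1.03. Within MC38 it was higher for 4 and lower for 2, beside 157 and 173 of the 390, where miR-155-5p had 0 reads in both libraries and the median was 0.78, beside 0.00 for the 390.

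Red cell and serum miRNAs are given beside the members because they mark blood material of another origin. Of the red cell and platelet list, all 5 entries were tested, of which miR-486a-5p and miR-486b-5p share all their reads. Their summed level, with shared reads counted a single time, in C26 was 228 RPM with ExoQuick and 1247 with Wako, and in MC38 47.0 and 776. The MC38 Wako sum rests on 3 reads, and its interval of 160 to 2266 RPM holds the C26 ExoQuick sum. None of the 5 passed in limma between the kits (unadjusted p from 0.0567 to 0.817), and within C26 the interval lay above 1 for all 5, which hold 4 distinct read profiles, beside 43.1% of the 390. Their median log2 difference was 4.61, beside 1.03. miR-451a, the defining miRNA of red cells, had 9 reads (6.63 RPM) with ExoQuick and 8 (237 RPM) with Wako in C26, and 1 (2.94 RPM) and 1 (259 RPM) in MC38. miR-122-5p, made by the liver and common in serum, went the other way, from 413 RPM with ExoQuick to 59.4 with Wako in C26 and from 746 to 259 in MC38, the Wako values on 2 reads and 1. The interval of its ratio of Wako to ExoQuick lay below 1 in C26 and held 1 in MC38. The part of blood or serum material in the levels of the members was not tested.

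Of 2 endothelial miRNAs, miR-126a-5p went from 65.6 RPM with ExoQuick to 1425 with Wako in C26. In MC38 it went from 126 to 517 RPM, the Wako value on 2 reads. miR-126a-3p went from 72.2 to 297 RPM in C26, and in MC38 from 149.7 RPM to 0 reads, whose exact interval reaches 953 RPM. The interval of the ratio of Wako to ExoQuick lay above 1 for both in C26, beside 43.1% of the 390. In MC38 it held 1 for both. Neither passed between the kits in limma (adjusted p = 0.189 and 0.813). Among miRNAs of muscle and neurons, miR-206-3p had 6 reads in MC38 ExoQuick and 0 elsewhere. miR-9-5p had 90 reads (66.3 RPM) with ExoQuick and 7 (208 RPM) with Wako in C26, so its level was higher with Wako. In MC38 it had 6 reads (17.6 RPM) with ExoQuick and 0 with Wako, where the exact interval reaches 953 RPM.

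**Figure D5:**
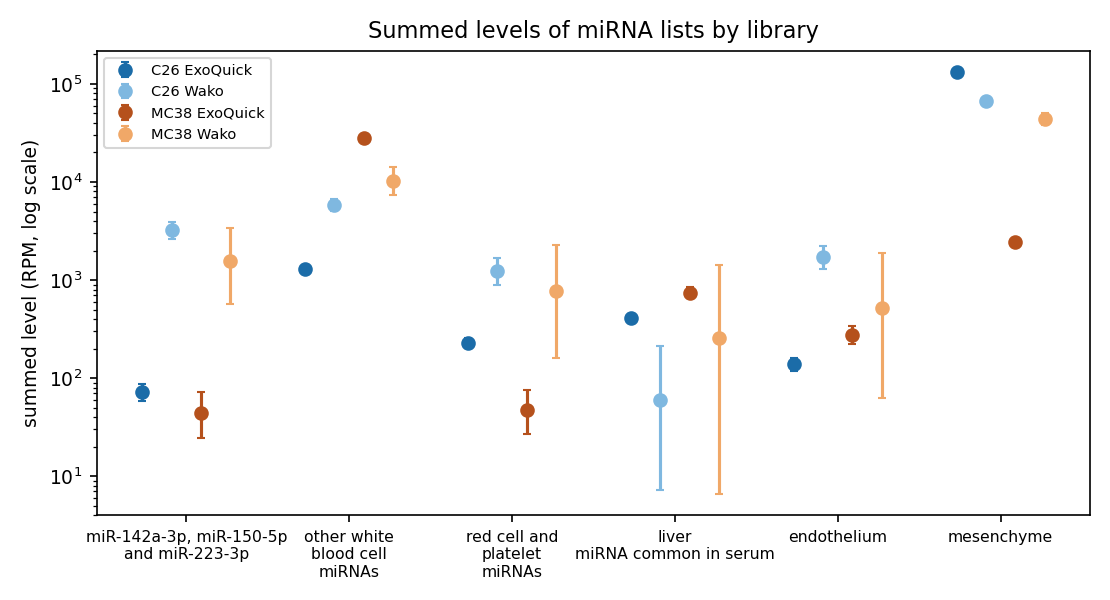
Summed level in RPM (log axis) of miR-142a-3p, miR-150-5p and miR-223-3p, and of 5 miRNA lists, in the 4 libraries, with exact 95% intervals. Those 3 members are higher in both Wako libraries than in both ExoQuick libraries. The red cell list is so by point value, but its MC38 Wako sum rests on 3 reads, with an interval that holds the C26 ExoQuick sum. The other white blood cell list is highest in MC38 ExoQuick (28385 RPM). The liver miRNA miR-122-5p is lowest by point value in C26 Wako (59.4 RPM, on 2 reads), with an interval that overlaps that of MC38 Wako.

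Likeness of profiles was measured as the distance between log2(RPM + 1) values over the 4 libraries, each profile centred on its own mean, among the 217 miRNAs whose mean reached 100 RPM. Nearest to miR-142a-5p were miR-298-5p (distance 0.9), miR-199b-5p (1.26) and miR-214-3p (1.3). miR-142a-3p lay nearest to miR-3473d (0.51), miR-149-5p (0.527) and miR-351-5p (0.893). The strands of the one hairpin lay 4.26 apart, and neither was among the 3 nearest of the other.

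For miR-150-5p the nearest were miR-5100 (1.77), miR-5099 (2.44) and miR-451a (3.5). miR-5100 went from 4.42 RPM with ExoQuick to 2463 with Wako in C26, and from 0 to 259 RPM, on 1 read, in MC38. miR-223-3p lay nearest to miR-5128 (1.78), miR-365-2-5p (1.9) and miR-326-3p (2.58), each with 0 reads in MC38 Wako like miR-223-3p itself. The members lay between 4.26 and 10.1 from each other. With 4 libraries, these distances describe the profiles only, and those of low miRNAs depend on the reads of MC38 Wako.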

How the data were processed

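The authors deposited 1 table of normalized signal for known mature miRNAs. DESeq2 is named in the submitters' processing notes, with the aligner, counter, build and miRBase version not given in the sources used here. For all 4 columns, 100% of the values above 0 divided into whole reads within 0.006, so reads and library totals were recovered, and the values were read as RPM. Every column was matched to 1 library by its name.

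limma 3.58.1 (R 4.3.3) was fitted with a trend on log2(value + 1), with line and kit as additive terms, for the 390 miRNAs whose mean reached 10, with Benjamini-Hochberg adjustment over all of them. It leaves 1 residual degree of freedom. edgeR 4.0.16 and DESeq2 1.42.0 on the recovered reads were alternatives, and edgeR called 19 miRNAs for the lines and 7 for the kits. Simulated data with known changes between the lines were used to test the line contrast in limma, edgeR and DESeq2. The kit contrast and the other settings were not tested in this way. The simulated data held no kit effect and no gap between the kits in the line difference, unlike these data, and only abundant miRNAs were scored. They therefore give no check of the member calls reported here. Ratios of reads have exact conditional binomial intervals. Named are the members, the other strands of their hairpins, list members, the 3 nearest profiles and the entries that separate the ExoQuick libraries. The members and lists were chosen with earlier results of these data known. Sequences are from RefSeq (GRCm38.p6), gene context from GENCODE M21 on GRCm38.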

Additional observations from a re-analysis of the deposited data

Results flagged for a closer look

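For 3 of the members, the same contrast had opposite signs under the other factor. These differences rest on single libraries and were not tested. For miR-142a-5p, C26 minus MC38 was 6.98 on the log2 scale under ExoQuick and −0.76 under Wako, a gap of 7.74. The same 4 values give Wako minus ExoQuick as −0.66 in C26 and 7.08 in MC38, a gap of −7.74. For miR-142a-3p, C26 minus MC38 was 1.14 under ExoQuick and −0.39 under Wako, a gap of 1.53, and the Wako value rests on 3 reads in MC38. For miR-223-3p, C26 minus MC38 was −1.36 under ExoQuick and 9.94 under Wako, a gap of −11.30, and Wako minus ExoQuick was 6.87 in C26 and −4.43 in MC38, a gap of 11.30. The miR-223-3p gaps depend on the pseudocount, since MC38 Wako had 0 reads, which allows up to 776 RPM by the 3-count limit and 953 by the exact interval.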

How the results depend on the processing

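Between the lines, 13 miRNAs and 1 member passed. All miRNAs called were 8 with no filter, 0 with median-ratio scaling, no second factor or no trend (26, 25 and 46 at unadjusted p under 0.05), and 21 in DESeq2. Members called were 0 under each of these, with a mean of at least 100 and in edgeR. Leaving out 1 library each, with no room for a second factor, gave 0 to 58 miRNAs (58 without C26 ExoQuick, 43 without C26 Wako, 0 without either MC38 library) and 0 members. Between the kits, 21 miRNAs and 2 members passed. All miRNAs called were 0 with median-ratio scaling or no trend (45 and 31 at unadjusted p under 0.05), 10 with quantile normalization, 9 with no second factor, 7 in edgeR, and 0 to 41 without 1 library (41 without MC38 ExoQuick, 11 without MC38 Wako, 0 without either C26 library). Members called were 1 with no filter, a mean of at least 100, quantile normalization, edgeR or DESeq2, each time miR-150-5p, and 0 with median-ratio or TMM scaling, no second factor or no trend. They were 0 or 1 without 1 library, the 1 being miR-150-5p without MC38 ExoQuick. Over 15 alternatives, miR-150-5p was called in 8 (adjusted p 0.000302 to 0.478), and miR-142a-5p in 4 for the lines (0.0245 to 0.98) and 2 for the kits (0.0146 to 1). Without 1 library the second factor is dropped too, so these fits change both, and no second factor alone already ended the calls of both members. Signs turned only where a library was left out. The log2 then ran from −0.43 to 6.66 for miR-142a-5p between the lines, negative without MC38 ExoQuick, and from −0.28 to 6.71 between the kits, negative without MC38 ExoQuick. It ran from −2.12 to 2.87 for miR-142a-3p and −2.43 to 7.18 for miR-150-5p between the lines, negative without C26 Wako or MC38 ExoQuick, and from −3.75 to 6.19 for miR-223-3p between the kits, negative without C26 Wako. The cause of these changes was not tested. Depth limits MC38 Wako most, where no member but miR-142a-5p had more than 3 reads.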
